A study of Mus musculus with 8 samples.

Results

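Hedgehog signaling passes from a secreted ligand to the Gli transcription factors, and 9 genes of this route were followed in RNA-seq data of JunB cKO and wild type mouse skin. They were Shh, Ptch1, Smo, Gli1, Gli2, Gli3, Hhip, Sufu and Gas1. Each was found by its symbol in 3 deposited tables, which list 26457 loci for unperturbed keratinocytes, 47990 for hair plucking and 46726 for wounds. All 9 genes were listed in all 3 tables. Of several loci under one symbol, that with the largest sum of both values was taken.

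Wild type mice were labelled JunB +/+ and JunB cKO mice JunB -/-, both on the C57BL/6 strain. In JunB cKO mice, floxed JunB is deleted by a Cre recombinase under the Krt14 promoter, which is active in basal epidermal progenitor cells and their descendants. Dermal cells therefore keep JunB in both genotypes. The unperturbed pair consists of keratinocytes that were isolated with trypsin, and it came from the back of mice aged 60 days. The hair plucking pair is skin plucked on postnatal day 54 and harvested on day 58, that is 4 days after plucking. The wound samples are skin biopsies taken 30 days after wounding, and the study made 4 full-thickness wounds of 6 mm per mouse. The age of the wounded mice is not given in the sources used here. Each library was made from the pooled RNA of 3 samples. The labels give each genotype 1 library of unperturbed keratinocytes, 1 of plucked skin and 2 of wounds. The wound table joins both libraries in 1 value per genotype. Every value below is therefore a single measurement without replicate error, and no test between the genotypes was possible.

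In the absence of ligand, Ptch1 holds Smo inactive, Sufu retains the Gli proteins in the cytoplasm, and Gli3 is mostly processed into a repressor. Binding of a ligand such as Shh to Ptch1 releases Smo, and Gli2 then acts as the main activator. Gli1, Ptch1 and Hhip are themselves transcribed in response, so that their RNA is widely used as a readout of the pathway. In skin, Shh is made by epithelial cells of the growing hair follicle, signals to both the epithelium and the dermal papilla, and is needed for follicle growth. Gas1 is a co-receptor that binds Shh on the receiving cell, and Hhip is a membrane protein that captures ligand and limits its spread.

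The promoters of the members were examined because JunB is a subunit of AP-1, a transcription factor that binds DNA, and because Gli proteins bind their own sites in target genes. Promoter sequences of RefSeq on GRCm38.p6, from 250 bases before to 50 bases after a start of the gene, were matched for 7 of the 9 members, namely Ptch1, Smo, Gli2, Gli3, Hhip, Sufu and Gas1. The promoters of Ptch1, the receptor, and of Gli2 and Sufu, which differed in opposite directions after hair plucking, are shown 5′ to 3′ on the strand of the gene, with each CpG in capitals. They lie at chr13:63565686-63565985 on the minus strand for Ptch1, at chr1:119053570-119053869 on the minus strand for Gli2 and at chr19:46396646-46396945 on the plus strand for Sufu. The window of Ptch1 belongs to a start inside the gene as bounded by GENCODE, not to its outermost start.
Ptch1: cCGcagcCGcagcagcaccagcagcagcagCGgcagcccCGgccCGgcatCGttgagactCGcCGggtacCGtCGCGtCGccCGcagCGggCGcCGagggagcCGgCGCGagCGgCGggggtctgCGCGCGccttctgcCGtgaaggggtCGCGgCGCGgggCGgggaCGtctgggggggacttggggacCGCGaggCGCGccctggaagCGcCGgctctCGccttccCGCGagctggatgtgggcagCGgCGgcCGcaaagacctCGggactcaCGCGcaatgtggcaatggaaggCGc
Gli2: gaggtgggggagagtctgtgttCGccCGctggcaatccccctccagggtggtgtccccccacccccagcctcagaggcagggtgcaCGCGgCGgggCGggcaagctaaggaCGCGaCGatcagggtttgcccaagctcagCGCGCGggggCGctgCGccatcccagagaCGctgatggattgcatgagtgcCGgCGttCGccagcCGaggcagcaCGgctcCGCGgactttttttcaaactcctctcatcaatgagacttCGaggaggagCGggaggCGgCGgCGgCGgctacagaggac
Sufu: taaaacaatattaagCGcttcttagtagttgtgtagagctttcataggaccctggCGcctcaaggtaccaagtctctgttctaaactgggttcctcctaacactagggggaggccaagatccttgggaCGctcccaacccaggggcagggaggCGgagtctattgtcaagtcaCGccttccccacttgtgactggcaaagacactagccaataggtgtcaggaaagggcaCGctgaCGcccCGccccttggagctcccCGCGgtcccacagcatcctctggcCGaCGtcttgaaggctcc
The Ptch1 promoter holds 47 CpGs, that of Gli2 28 and that of Sufu 12. Over the 7 matched members the number ranged from 12 to 47 with a median of 28, whereas the median over all 32851 RefSeq promoters of the same length was 7. Their GC content lay between 56.3% and 76.3%, with a median of 67.7% against 52.7% for all promoters. Both strands were searched for the AP-1 letters TGANTCA, where N is any base, and for the Gli letters TGGGTGGTC, which read GACCACCCA on the other strand. Neither was found in the 7 windows. Of all promoters, 7.81% held the AP-1 letters and 0.253% the Gli letters. This says only that these letters are not in these 300 bases.

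The unit of the tables is FPKM, a read number scaled by transcript length and library size. Differences are given as log2((cKO + 0.1)/(WT + 0.1)), called the log2 ratio, which understates the difference of genes with a low FPKM. A locus was counted as 2-fold higher or lower when log2((cKO + 1)/(WT + 1)) was at least 1 or at most -1. Junb itself was below wild type in JunB cKO in each table, with log2 ratios of -3.09, -1.79 and -1.11. Low FPKM values fall on steps of whole reads, from which the depth was estimated. For 1 kb of transcript beyond the first 200 bases, 1 FPKM was worth 16.9 reads in unperturbed wild type and only 4.98 in unperturbed JunB cKO. It was worth 16.3 and 12.9 reads after hair plucking and 43.3 and 39.6 reads in wounds. In wounds only 356 of 513 and 183 of 316 low loci lay within 0.5% of a whole read, so that the wound estimate is rougher. Intervals at 95% were calculated from these reads and cover counting error only. For genes with transcripts of several lengths, the reads were taken from the shortest transcript, which gives the widest interval.

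The cell types in the samples differed between the tables, as the marker genes show. In unperturbed keratinocytes Krt5 and Krt14, the keratins of basal cells, stood at 2592 and 1212 FPKM in wild type and 2690 and 1113 in JunB cKO, whereas the 8 fibroblast markers summed to 19.6 FPKM in wild type against 19.4 in JunB cKO. The 5 endothelial markers summed to 0.303 and 2.72. In JunB cKO each of them lay between 0.164 and 1.12 FPKM. Sensory receptor genes, described below, stood at a similar level in that library, with a median of 0.543. No difference in endothelium is therefore read from these sums. The plucked samples carry keratinocyte as their tissue label and skin biopsy in their title. Their fibroblast markers summed to 5167 FPKM in wild type against 1888 in JunB cKO, so that these samples held dermis. In wounds the same markers summed to 10744 and 13600. In whole tissue, fewer cells of a type and less RNA per cell cannot be told apart.

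Shh, the ligand, was found at low levels and differed most between the genotypes among the 9 members. Its gene lies on chromosome 5 of GRCm38 from 28456815 to 28467256 on the minus strand (ENSMUSG00000002633.4). In unperturbed keratinocytes its FPKM was 0.312 in wild type against 2.03 in JunB cKO, a 6.52-fold difference (log2 ratio 2.37). After hair plucking Shh was listed at 0 in wild type, against 2.67 in JunB cKO. In wounds the order was the opposite, with 1.90 in wild type against 0.511 in JunB cKO (log2 ratio -1.71), that is 3.72-fold lower in JunB cKO. Shh was thus higher in JunB cKO in 2 tables and lower in the third.

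The reads behind Shh were few. About 14 reads in wild type against 27 in JunB cKO gave the unperturbed values, with counting intervals of 0.171 to 0.525 and 1.35 to 2.98 FPKM and of 3.31 to 13.5 for the fold. After hair plucking about 91 reads were counted in JunB cKO, with an interval of 2.15 to 3.28 FPKM. In wild type, 3 reads at this depth would correspond to 0.0695 FPKM. In wounds about 218 and 54 reads were counted, and the fold of JunB cKO over wild type was 0.268 with an interval of 0.197 to 0.366. The Shh locus extends far beyond the gene in every table. In the unperturbed table it ends at 28719209 and shares its bounds with 9530036O11Rik, listed at 0 in wild type against 0.589 in JunB cKO. In the plucked and wound tables it ends at 28933995 and shares its bounds with 4 other entries, of which Gm26894 was listed at 0 in wild type against 1.98 in JunB cKO after hair plucking and at 1.15 and 1.09 in wounds.

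The unperturbed JunB cKO library also held reads in genes of sensory tissues. Among 1453 odorant, vomeronasal and bitter taste receptor genes, 69 were above 0 in wild type against 1251 in JunB cKO, where their median was 0.543 FPKM and 95% were at or below 1.65. Shh stood above most of them, since 36 receptor genes (2.48%) reached its level in JunB cKO and 8 (0.551%) did in wild type. Ihh and Dhh, the other Hedgehog ligands, showed the same direction, with 0.105 FPKM in wild type against 1.97 in JunB cKO for Ihh and 0.0546 and 1.02 for Dhh. When the median of the receptor genes was subtracted, which was decided once the values were known, the log2 ratio of Shh was 1.95 in place of 2.37, and 0 of the 9 members were past 2-fold in place of 1. The part of this background in the Shh difference was not tested further. In the plucked and wound tables the median of the receptor genes was 0 in both genotypes, and 4 of 1449 receptor genes reached the level of Shh in plucked JunB cKO skin.

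**Figure D1:**
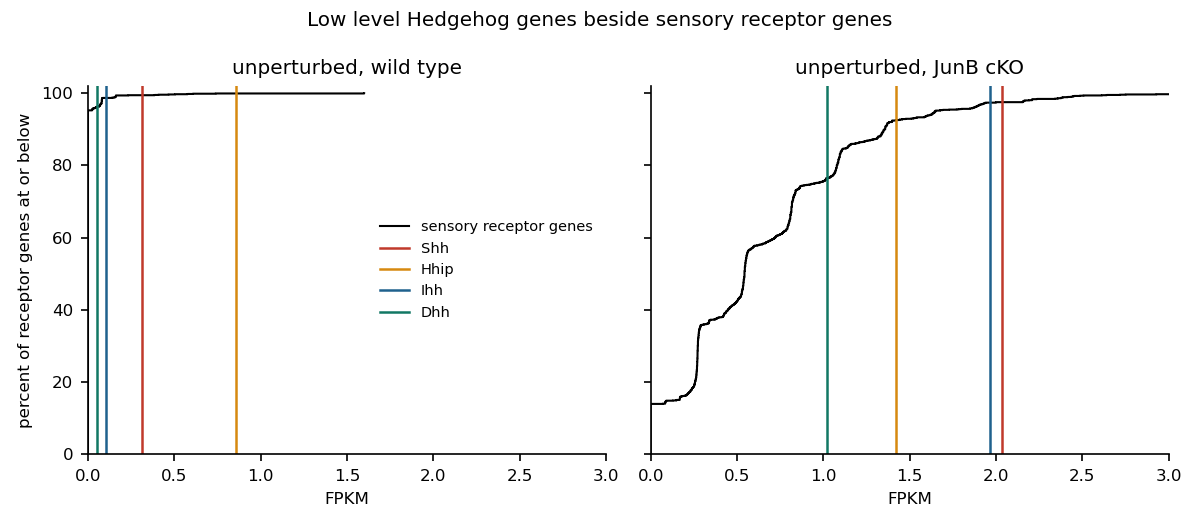
Percent of the 1453 sensory receptor genes at or below a given FPKM in unperturbed wild type (left) and JunB cKO (right), with vertical lines at the FPKM of Shh, Hhip, Ihh and Dhh. In JunB cKO the receptor curve reaches 95% at 1.65 FPKM and Shh stands at 2.03, whereas in wild type 69 receptor genes are above 0 and Shh stands at 0.312.

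Hhip, which captures ligand at the cell surface, stood in the same direction as Shh in each table. Hhip lies on chromosome 8 from 79965851 to 80058006 on the minus strand (ENSMUSG00000064325.4). In unperturbed keratinocytes it was at 0.860 FPKM in wild type against 1.42 in JunB cKO (log2 ratio 0.67), with a counting interval of 1.21 to 2.26 for the fold. After hair plucking it was at 0.580 and 1.61, a 2.77-fold difference from about 84 and 184 reads (log2 ratio 1.33; interval of the fold 2.13 to 3.64). In wounds Hhip was at 1.26 in wild type against 0.838 in JunB cKO (log2 ratio -0.54). The order of the 6 columns was nearly that of Shh. Both were highest in plucked JunB cKO skin, followed by unperturbed JunB cKO and wild type wounds, and both were lowest in plucked wild type skin, while wounds of JunB cKO and unperturbed wild type changed places. In unperturbed JunB cKO, 109 receptor genes (7.50%) reached the level of Hhip, and with their median subtracted its log2 ratio was 0.031 in place of 0.67. The tables were normalized separately, so that orders across them are a description.

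Gas1, the co-receptor on chromosome 13 from 60174405 to 60177365 (ENSMUSG00000052957.8), varied least of the 9 members across the 6 columns. It was at 21.5 FPKM in wild type against 20.7 in JunB cKO in unperturbed keratinocytes, 24.5 and 20.9 after hair plucking and 19.7 and 24.2 in wounds. Its highest value was 1.24 times its lowest. By the shortest transcript, the counting interval of the fold included 1 in the unperturbed and plucked tables, and in wounds it ran from 1.12 to 1.35. In the plucked table it ran from 0.727 to 1.0035, from 381 and 257 reads. The longest transcript would give 1101 and 743 reads there and a narrower interval, which was not calculated.

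**Figure D2:**
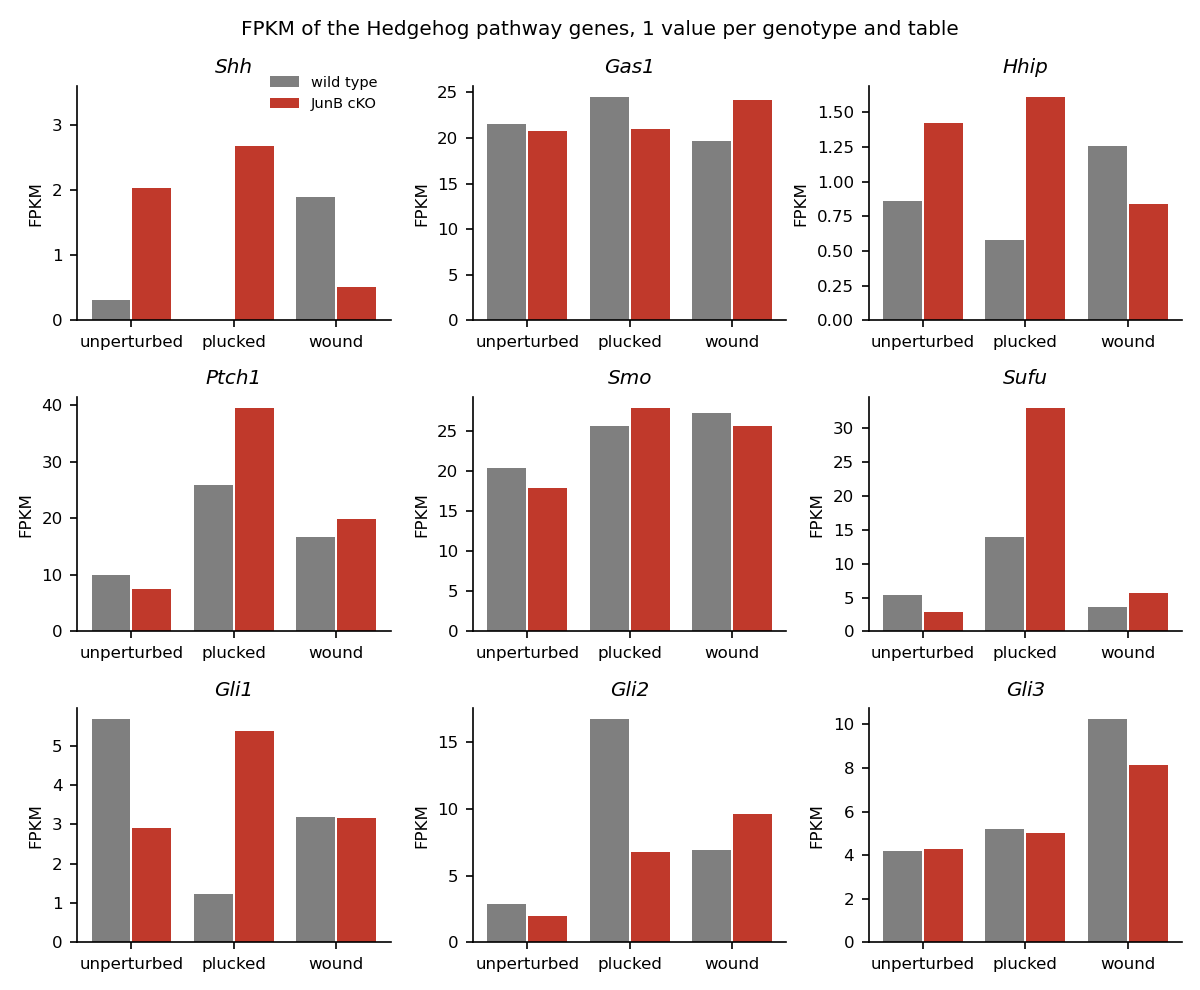
FPKM of the 9 Hedgehog genes (vertical axes, each from 0 to its own maximum) in wild type (grey) and JunB cKO (red) of the unperturbed, plucked and wound tables, with 1 value per bar and no error. Shh and Hhip are higher in JunB cKO in the unperturbed and plucked tables and lower in wounds, whereas Gas1 stays between 19.7 and 24.5 in all columns.

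Ptch1 and Smo, the receptor and the signal transducer under its control, were expressed at intermediate levels in all samples. Ptch1, on chromosome 13 from 63508328 to 63573598 (ENSMUSG00000021466.12), was at 10.1 FPKM in wild type against 7.48 in JunB cKO in unperturbed keratinocytes. It was at 26.0 and 39.5 after hair plucking, 1.52-fold higher in JunB cKO (log2 ratio 0.60; interval of the fold 1.29 to 1.80), and at 16.7 and 19.9 in wounds. Smo, on chromosome 6 from 29735503 to 29761365 (ENSMUSG00000001761.7), was at 20.4 and 17.9 in unperturbed keratinocytes, 25.6 and 27.9 after hair plucking and 27.3 and 25.7 in wounds. The log2 ratios of Smo lay between -0.19 and 0.12, the narrowest range of the 9 members. The counting interval of its fold ran from 0.772 to 0.992 in unperturbed keratinocytes, from 1.01 to 1.17 after hair plucking and from 0.900 to 0.984 in wounds.

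Gli1 showed its largest difference after hair plucking. It lies on chromosome 10 from 127329882 to 127341974 on the minus strand (ENSMUSG00000025407.7). After hair plucking it was at 1.24 FPKM in wild type against 5.38 in JunB cKO, 4.34-fold higher (log2 ratio 2.03), with a counting interval of 1.63 to 15.7. In unperturbed keratinocytes it was at 5.67 in wild type against 2.90 in JunB cKO (log2 ratio -0.95), and the interval of the fold included 1. That interval rests on 26 and 4 reads by the shortest transcript. The longest transcript would give 370 and 56 reads and a narrower interval, which was not calculated. In wounds both genotypes were nearly equal, with 3.20 and 3.16 (log2 ratio -0.02). Gli1 was therefore lower in unperturbed JunB cKO, where Shh was higher, and it was nearly equal in wounds, where Shh was lower in JunB cKO. The plucked table was the only one in which Shh, Gli1, Ptch1 and Hhip were all higher in JunB cKO.

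Gli2, the main activator, stood in the opposite direction to Gli1 after hair plucking. It lies on chromosome 1 from 118834132 to 119053619 on the minus strand (ENSMUSG00000048402.14). It was at 16.7 FPKM in wild type against 6.77 in JunB cKO, 2.47-fold lower (log2 ratio -1.29; interval of the fold of JunB cKO over wild type 0.294 to 0.561). In unperturbed keratinocytes Gli2 was at 2.85 and 2.00, and in wounds at 6.93 and 9.60. Gli3, the repressor, on chromosome 13 from 15463235 to 15730026 (ENSMUSG00000021318.15), was at 4.17 and 4.29, 5.22 and 5.04, and 10.2 and 8.15 in the 3 tables in the same order. By the shortest transcript, the interval of its fold included 1 in each. In wounds that interval rests on 118 and 86 reads, and the longest transcript would give 3535 and 2574. The narrower interval was not calculated, so that whether it includes 1 is not known. Across the columns, the wild type level of Gli2 was lowest in keratinocytes and highest in plucked skin.

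Sufu, which restrains the Gli proteins, lies on chromosome 19 from 46396896 to 46488804 on the plus strand (ENSMUSG00000025231.17). After hair plucking Sufu was at 13.9 FPKM in wild type against 32.9 in JunB cKO, 2.37-fold higher (log2 ratio 1.24; interval of the fold 2.08 to 2.71). A second Sufu entry over the same interval was at 1.23 and 1.66. In wounds Sufu was at 3.63 and 5.60 (log2 ratio 0.61), and in unperturbed keratinocytes at 5.35 and 2.86 (log2 ratio -0.88; interval of the fold 0.324 to 0.839). In the unperturbed table an entry named LOC100862031 had the same bounds as Sufu and the opposite direction, with 2.74 and 5.12, so that the split of reads between both entries is uncertain. Summed over both entries, a step added once the values were known, wild type stood at 8.09 and JunB cKO at 7.98.

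**Figure D3:**
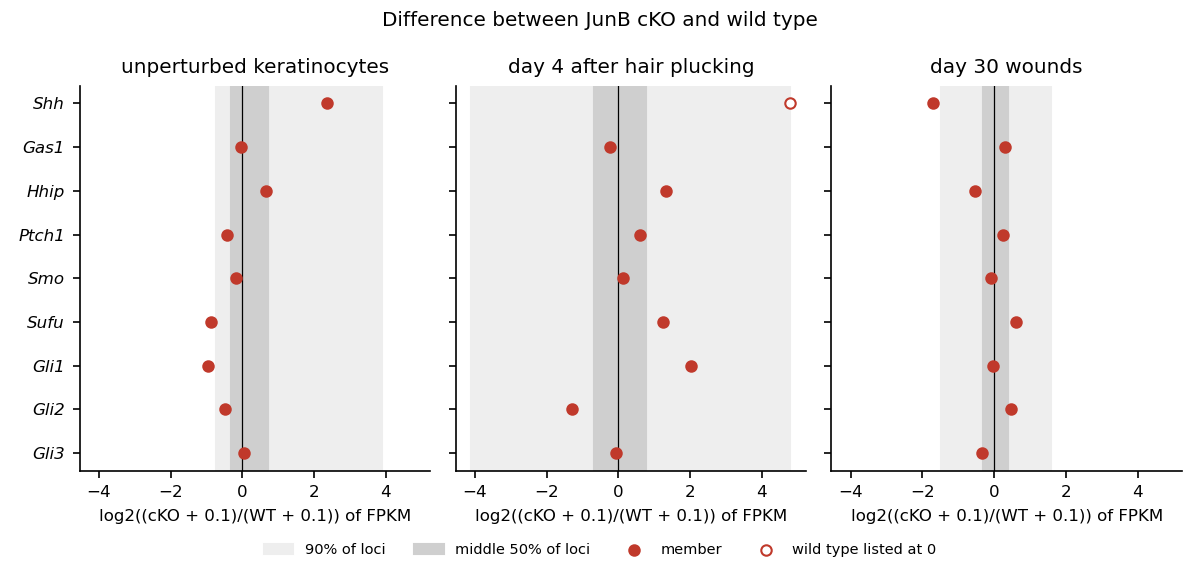
Log2 ratio of JunB cKO over wild type (horizontal axis, log2((cKO + 0.1)/(WT + 0.1)) of FPKM) for the 9 members in the 3 tables, over bands that hold the middle 50% and the middle 90% of all loci with at least 1 FPKM in either genotype. Shh lies just outside the 90% band after hair plucking, where its open circle stands for wild type listed at 0, and in wounds, and Gli1 and Sufu lie left of the band in unperturbed keratinocytes.

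Counted over all members, the plucked table held most of the differences. In unperturbed keratinocytes, 1 of 9 members (Shh) was 2-fold higher in JunB cKO and 0 were 2-fold lower. For comparison, 9.31% of all 26457 loci were 2-fold higher and 0.858% lower, and of the 15973 loci with at least 1 FPKM in either genotype 15.4% were higher and 1.42% lower. After hair plucking, 3 members (Shh, Gli1 and Sufu) were 2-fold higher and 1 (Gli2) was lower, whereas 6.5% of all loci were higher and 5.65% lower, or 18.4% and 16.0% of the 16932 loci with at least 1 FPKM. In wounds, 0 members were past 2-fold in either direction, against 2.16% of all loci higher and 1.98% lower, or 5.68% and 5.19% of the 17787 loci with at least 1 FPKM. All 9 members had at least 1 FPKM in one genotype in every table, so that the shares of such loci are the closer comparison.

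The median log2 ratio of the 9 members was -0.19 in unperturbed keratinocytes, 0.60 after hair plucking and -0.02 in wounds. Over all loci with at least 1 FPKM in either genotype, the medians were -0.04, 0.03 and 0.02. Over loci with at least 1 FPKM in both genotypes the unperturbed median was -0.17. Relative to it, the median of the members was -0.02, and Gas1 turned from -0.05 to 0.12. After hair plucking 90% of all log2 ratios lay between -4.09 and 4.79, compared with -1.49 and 1.58 in wounds, so that large differences were frequent in the plucked table. There, 802 loci had the pattern of Shh, with 0 in wild type and at least its level in JunB cKO, and 542 showed the reverse.

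Other genes of the pathway were collected in lists by their role, 95 in all without the members. In unperturbed keratinocytes, 7 of the 90 listed there were 2-fold higher in JunB cKO and 1 was lower. The shares over all loci were 9.31% and 0.858%, and 15.4% and 1.42% of loci with at least 1 FPKM, so that the higher genes were no more frequent than among all loci. The highest log2 ratios were those of the downstream transcription factor genes Foxd1, at 0.0262 FPKM in wild type against 3.11 in JunB cKO, Foxf2, listed at 0 and at 2.04, and Sox18, listed at 0 and at 1.84. The lowest were those of Igfbp3, which encodes a binding protein of insulin-like growth factors, at 173 and 71.0, of the glypican gene Gpc3, at 2.06 and 0.818, and of the kinase gene Ulk3, at 8.90 and 5.50. Foxd1, Foxf2 and Sox18 stood at or near 0 in wild type. In the JunB cKO library 95% of the sensory receptor genes were at or below 1.65 FPKM, and single ones were higher, for example Olfr275 at 3.90. The part of that background in the values of these 3 genes was not tested. Of the 10 genes measured around Smo, 9 were lower in JunB cKO and 1 was higher, and 0 were past 2-fold. Their median log2 ratio was -0.29, against -0.17 over all loci with at least 1 FPKM in both genotypes. Lower values in JunB cKO were thus common in this table.

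After hair plucking, 17 of 89 other pathway genes were 2-fold higher in JunB cKO and 3 were lower, and the median log2 ratio was 0.31 over the 79 genes with at least 1 FPKM. Every gene past 2-fold has at least 1 FPKM in one genotype, so that these 79 genes are the base to set beside such loci. Among all loci with at least 1 FPKM, 18.4% were higher and 16.0% lower. The share of higher pathway genes was near that of all loci, and the share of lower ones was below it. Of the 8 genes for ligands and their release, 3 were 2-fold higher and 0 lower. These were Dhh, listed at 0 in wild type against 2.05 in JunB cKO, Scube2, at 4.83 and 12.6, and Scube3, at 0.469 and 1.96. Scube proteins help to release the lipid-bound ligand from the cell. Of the 22 genes of the primary cilium, the organelle in which Smo and the Gli proteins meet, 4 were 2-fold higher and 0 lower, a share of higher genes near the same 18.4%. The highest log2 ratios were those of Efcab7, which anchors a ciliary complex that Smo signals through, listed at 0 in wild type against 15.1 in JunB cKO, of Mycn, a downstream growth gene, listed at 0 and at 2.84, and of Dync2li1, a ciliary dynein gene, listed at 0 and at 2.21. The lowest were those of the kinase gene Stk36, for which wild type had 4.03 and JunB cKO is listed at 0, of Igfbp3, at 52.6 and 16.4, and of Arrb2, an arrestin gene, at 29.0 and 12.3.

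In wounds, 1 of 89 other pathway genes was 2-fold higher and 1 lower, below the 5.68% and 5.19% of loci with at least 1 FPKM. Sox18 was at 1.09 FPKM in wild type against 3.28 in JunB cKO, and Ccnd2, which encodes cyclin D2 and is a target of the pathway, at 150 and 46.7. The next lowest were Mycn, at 4.05 and 1.77, and the ciliary gene Bbs2, at 9.83 and 4.70. The next highest were the ciliary genes Mks1, at 2.11 and 4.56, and Ift80, at 17.1 and 32.1. The median over the 81 genes with at least 1 FPKM was 0.02. Mycn thus stood in the direction of Shh in both the plucked and the wound table.

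**Figure D4:**
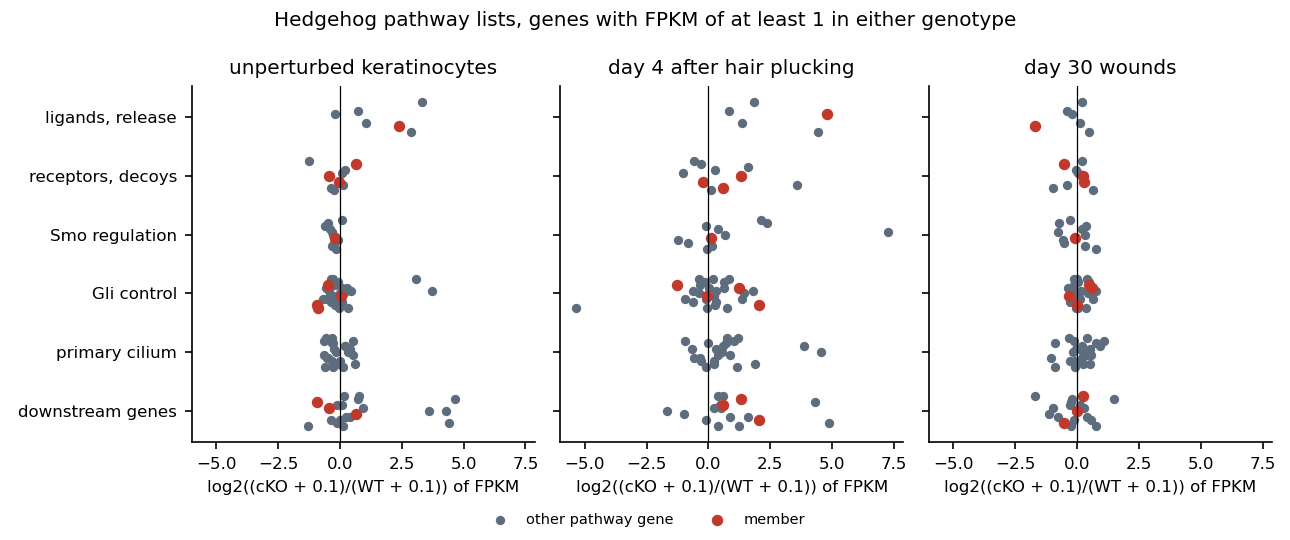
Log2 ratio of JunB cKO over wild type (horizontal axis) for the genes of 6 Hedgehog pathway lists (rows) in the 3 tables, with members in red, other pathway genes in grey, a gene of 2 lists drawn in both, and only genes with at least 1 FPKM in either genotype. The points are spread most widely after hair plucking, and in wounds all other pathway genes but Sox18 and Ccnd2 are within 2-fold by the count given in the text.

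Markers of the cell types that send and receive the signal were set beside the members. The hair matrix and growing follicle, where Shh is normally made, were followed by 12 measured markers. After hair plucking their summed FPKM was 58.5 in wild type against 416 in JunB cKO, and 8 markers were 2-fold higher and 1 was lower. Of all loci with at least 1 FPKM there, 18.4% were higher and 16.0% lower. Krt25 and Krt71, keratins of the inner root sheath, were at 5.28 and 98.5 and at 26.1 and 168, and Lef1, a matrix transcription factor gene, at 1.46 and 6.94. With Krt27, at 9.13 and 94.6, these keratins had the largest JunB cKO values, so that the sum rests largely on them. By direction alone 10 markers were higher and 2 lower. Hoxc13 was lower, with 5.34 against 2.71, and so was Msx1, with 1.17 against 0. Dlx3 differed little, with 6.72 against 7.81. In wounds the sum was 5093 in wild type against 3643 in JunB cKO, with 8 of 12 markers lower, 1 of them 2-fold. Of all loci with at least 1 FPKM in wounds, 5.19% were 2-fold lower. The sums after hair plucking and in wounds differed in the direction of Shh. In unperturbed keratinocytes, by contrast, the sum was 67.5 and 65.9, while Shh was higher in JunB cKO. The part of the hair matrix in the Shh values was not tested.

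Among dermal cells, which receive the signal, fibroblasts and the papilla were followed by their markers. In plucked JunB cKO skin, 7 of the 8 fibroblast markers were lower, 4 of them 2-fold, with Col1a1 at 1168 FPKM in wild type against 527 in JunB cKO. Of all loci with at least 1 FPKM there, 16.0% were 2-fold lower. The dermal papilla markers other than Hhip, of which 10 were listed, were mixed there by direction alone. Of them 4 were higher and 4 lower, with a median log2 ratio of 0. Their sum was 39.7 and 15.9. By the 2-fold count 1 was higher and 3 were lower, beside 18.4% and 16.0% of loci with at least 1 FPKM. The 3 lower ones were Corin, a defining gene of the papilla, at 9.25 and 0.455, Fgf7, at 15.3 and 3.33, and Wif1, at 8.40 and 3.06. The higher one was Alx4, listed at 0 in wild type against 1.49 in JunB cKO, and Rspo3 was at 2.71 and 3.33. Gli2 differed in the direction of the fibroblast markers, whereas Hhip, Gli1 and Ptch1 differed in the opposite direction. In wounds the dermal papilla markers summed to 42.1 and 46.8. After hair plucking skeletal muscle markers summed to 199 and 26.0, with 5 of 5 lower, 4 of them 2-fold. Leukocyte markers summed to 365 and 168, with 5 of 6 lower, 4 of them 2-fold, and Cd3e at 2.53 and 2.64. Cell division markers summed to 164 and 242, with 6 of 7 higher, 1 of them 2-fold. Cdk1 was 2-fold lower, at 26.0 and 9.31. The shares of loci given above, 18.4% higher and 16.0% lower, hold for these counts as well. The part of the tissue composition in the member values was not tested. Of 29 housekeeping genes in the plucked table, 1 was 2-fold higher and 2 were lower in JunB cKO. Of all loci with at least 1 FPKM, 18.4% were higher and 16.0% lower. The log2 ratios of the housekeeping genes ran from -1.69 to 2.22, a range that holds those of Gli1, Gli2, Hhip and Sufu. Polr2a was at 9.05 in wild type against 42.5 in JunB cKO, and Sdha at 170 and 52.6.

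**Figure D5:**
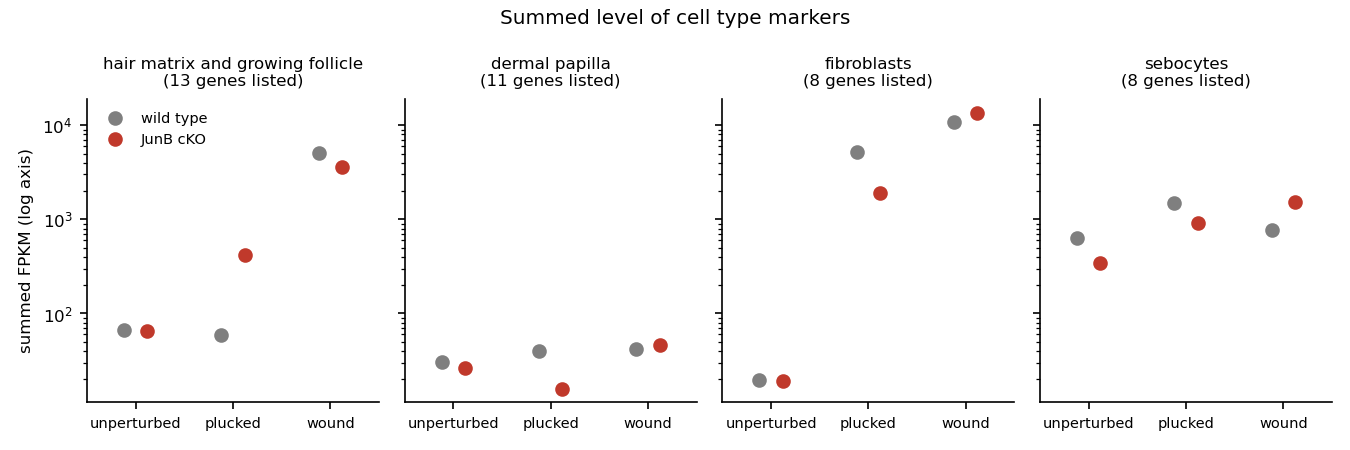
Summed FPKM (log axis) of the markers of hair matrix, dermal papilla without Hhip, fibroblasts and sebocytes in wild type (grey) and JunB cKO (red) of the 3 tables. After hair plucking the hair matrix sum is 58.5 in wild type against 416 in JunB cKO, and the fibroblast sum 5167 and 1888.

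Genes with a pattern like that of Shh or Gli1 over the 6 columns were sought among 15547 genes by the Euclidean distance between centred log2(FPKM + 0.1) values. The closest to Shh was Mapk15, a kinase gene, with a distance of 0.807. Mapk15 was at 0.239 FPKM in wild type against 1.16 in JunB cKO in unperturbed keratinocytes, listed at 0 and at 2.08 after hair plucking, and at 1.08 and 0.548 in wounds. It was followed by Atp6v1g2 and 5730405O15Rik, at distances of 0.979 and 1.05. All 3 were listed at 0 in plucked wild type skin, like Shh, and were below 3 FPKM in all columns. The closest to Gli1 was Arg2, an arginase gene, with a distance of 0.461, at 4.93 and 3.25, 1.52 and 4.49, and 3.30 and 3.36 in the 3 tables. Ephb6 and Unc13d came next, at 0.539 and 0.544.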

How the data were processed

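Adapter-trimmed and quality-filtered single-end reads of 75 bases were mapped by the authors to GRCm38 (mm10 in the submitters' processing notes) with TopHat and HISAT2, and loci were assembled with Cufflinks and compared with Cuffdiff. The deposited tables hold 1 FPKM value per genotype and locus, as calculated by the authors, after rRNA depletion and stranded library preparation from pooled RNA. They also hold the fold changes, p-values and q-values of the authors' own comparison, which were not used. The unperturbed table was made with another set of loci, and each table was normalized separately. Genotypes follow the names inside the tables, and the conditions of the plucked and wound tables follow the names of the tables.

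The members and all gene lists were chosen with earlier results of these data known. Named were all 9 members, Junb, the 3 highest and 3 lowest other pathway genes per table with at least 1 FPKM in either genotype, marker genes, and the 3 genes most alike to Shh and to Gli1. Further genes were named after their values were seen, among them Ihh, Dhh, Scube2, Scube3 and the housekeeping genes. A pseudocount of 0.1 was used for log2 ratios and of 1 for counts past 2-fold. No test was possible with 1 value per genotype. An FPKM of 0 is given as listed, since 2 housekeeping genes were listed at 0 in the unperturbed table as well. Depth came from the read steps of single-exon loci between 600 and 3000 bases, and intervals assume Poisson counts. Gene positions are 1-based from GENCODE release M21, and promoters are from RefSeq. Python 3.11.15, pandas 2.3.3, numpy 2.4.6, scipy 1.17.1 and matplotlib 3.10.9 were used.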

Additional observations from a re-analysis of the deposited data

Results flagged for a closer look

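The difference between JunB cKO and wild type had opposite directions in different tables for 4 of the 9 members, with a log2 ratio of at least 0.5 in size in each direction, a limit chosen after the values were seen. The log2 ratio of Shh was 2.37 in unperturbed keratinocytes, 4.79 after hair plucking, where wild type was listed at 0, and -1.71 in wounds. For Hhip it was 0.67, 1.33 and -0.54 in the same order. Gli1 had a log2 ratio of -0.95 in unperturbed keratinocytes and 2.03 after hair plucking. Sufu had -0.88 in unperturbed keratinocytes, 1.24 after hair plucking and 0.61 in wounds. By the shortest transcript, with 26 and 4 reads, the counting interval of the unperturbed Gli1 fold included 1. The longest transcript would give 370 and 56 reads. With the entry of the same bounds added, the unperturbed log2 ratio of Sufu was -0.020. The opposite direction of Gli1 and of Sufu is therefore uncertain in different ways. For Gli1 the counting interval depends on the transcript length taken, and that of the longest was not calculated. For Sufu the split of reads between both entries is uncertain. With 1 value per genotype and table these differences were not tested, and the tables also differ in tissue and time, which cannot be told apart.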

How the results depend on the processing

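No paired analysis was possible because the wound table gives 1 value per genotype over both libraries, and for the same reason no fit without 1 replicate was made.

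The number of members higher in JunB cKO, 3 in unperturbed keratinocytes, 6 after hair plucking and 4 in wounds, was between 2 and 4 in unperturbed keratinocytes and did not differ in the other tables over the alternatives run. With a 1.5-fold limit, 3 members were past it in unperturbed keratinocytes (1 higher, 2 lower) and 1 in wounds (lower), and 8029, 9846 and 4935 loci were past it in the unperturbed, plucked and wound tables, against 2689, 5830 and 1934 past 2-fold. With a pseudocount of 0.1, 1 member (Shh, lower) was past 2-fold in wounds and 5 after hair plucking, and 10556, 8864 and 6471 loci were. With the receptor median subtracted, chosen after seeing the data, 0 members and 1372 loci were past 2-fold in unperturbed keratinocytes, of which 940 were higher and 432 lower, against 2462 and 227, and the median of the members was -0.23. The median of the members was -0.18 and 0.59 with a pseudocount of 1 in the unperturbed and plucked tables, and -0.017 and -0.032 after centring in the unperturbed and wound tables. Gli3 turned from 0.04 to -0.15 with that subtraction. Of the 118 recalculated log2 ratios, 6 left their counting interval. None turned the direction of a member past 2-fold. Only Shh in the unperturbed table and Shh, Gli1, Gli2 and Sufu in the plucked table could count here. A change of pseudocount cannot turn a direction, so that this outcome was partly fixed beforehand. The cause of these shifts was not tested. Depth limits the low values, with about 14 reads for Shh in unperturbed wild type and, by the shortest transcript, 4 for Gli1 in unperturbed JunB cKO and 5 in plucked wild type.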
